A study of Mus musculus with 4 samples.

Results

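The genes described here are 10 parts of the switch that takes a cell from G1 into S phase: the D cyclins Ccnd1, Ccnd2 and Ccnd3, the E cyclins Ccne1 and Ccne2, the kinases Cdk4 and Cdk6, and the inhibitors Cdkn1b, Cdkn2a and Cdkn2b. They were taken by name, through the gene symbols of the platform annotation, and are 10 of 12393 genes with a probe set of their own, read by 21 probe sets. Progression of a cell from G1 into S phase depends on kinases whose activity is set by cyclins and held back by inhibitors. D cyclins pair with CDK4 and CDK6, E cyclins pair with CDK2, and both kinds of complex phosphorylate the retinoblastoma proteins, which releases E2F transcription factors to switch on genes of DNA synthesis. Inhibitors of the INK4 family block CDK4 and CDK6, and those of the Cip/Kip family bind cyclin-CDK complexes more broadly. In the epidermis dividing keratinocytes lie in the basal layer, and cells leave the cycle as they move up and cornify.

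The cells were primary cultured keratinocytes from tail skin of mice on the C57BL/6 background, all of which carried floxed Prdm1, the gene of the transcriptional repressor Blimp-1. Control cells had no CreER and CKO cells expressed CreER, a recombinase that cuts floxed DNA once 4-hydroxytamoxifen (4OHT) binds it; the sources used here do not give the promoter that drives CreER, the age of the mice or the number of mice per culture. Cells of each genotype were kept with 4OHT, or with ethanol (EtOH) alone, between day 1 and day 3 and harvested on day 5, which gives 4 groups of 1 array each, named by genotype and by EtOH or 4OHT. With 1 array per group no error can be estimated, no difference was tested, and a comparison of genotypes is also one of animals.

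Values are RMA intensities on a linear scale, a summary of the probes of each probe set after background correction and normalization between arrays. Differences are log2 differences between arrays, and a gene was counted as higher or lower when the difference reached 2-fold. A gene was called measured if at least 1 array gave it an intensity of 20.04 or more, the median over the table. This held for 6 of the 10 genes (Ccnd1, Ccnd2, Ccnd3, Ccne1, Cdk4 and Cdkn2b) and for 7463 genes in all. Ccne2, Cdk6, Cdkn1b and Cdkn2a stayed below it on every array, and as the table has no detection calls their values may be background. Prdm1 itself read 20.7 with ethanol and 52.4 with 4OHT in control cells, and 17.0 and 6.43 in CKO cells. Both CKO values lie under 20.04 and may be background, so the size of the difference between them is uncertain. Of the keratinocyte markers 11 of 13 were measured, with summed intensities between 16269 and 17299 on the 4 arrays, although Krt1, a keratin of differentiating cells, was at 21.8 in CKO 4OHT against 136 to 246 elsewhere. Krt10, also a keratin of differentiating cells, did not share this, at 249 in CKO 4OHT against 209 to 352 elsewhere. Lor read 104 there against 110 to 151, and Ivl stayed under 20.04 on every array. Of the fibroblast markers 1 of 8 was measured (summed intensity 77.8 to 84.0), and none was of 6 endothelial (39.0 to 47.6), 4 Merkel cell (29.9 to 34.3) and 4 skeletal muscle markers (43.0 to 46.1). The 6 melanocyte markers on the array summed to between 119 and 146, highest in CKO 4OHT, with 4 of them measured. Of the 9 leukocyte markers 2 were measured, and all 9 summed to between 188 and 288, lowest in CKO 4OHT; Cd68 was at 98.2 there against 171 to 198 elsewhere, and the other 8 summed to between 89.5 and 93.9. The part of these markers in the results was not tested. In a bulk culture a smaller share of cells with a transcript and less of it per cell cannot be told apart.

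By the probe set that represents each gene, cyclin D1 was the one gene of the 6 measured that passed 2-fold. Some other Ccnd2 probe sets passed it too, as given below. Ccnd1 (Entrez 12443), the D cyclin best known as a sensor of growth factor signals, read 249.98 with ethanol and 154 with 4OHT in control cells, and 215 and 521 in CKO cells by its brightest probe set, 1448698_at. The CKO 4OHT array was the highest, control 4OHT was the lowest, and the ethanol arrays of both genotypes lay between them. The second probe set, 1417420_at, read 173, 97.2, 136 and 312 on the same arrays in that order, and the third, 1417419_at, read 86.0, 63.6, 69.0 and 177. All 3 probe sets placed CKO 4OHT highest and control 4OHT lowest.

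In CreER cells Ccnd1 was 2.43-fold above the ethanol culture with 4OHT, a log2 difference of 1.28 that ranged from 1.19 to 1.36 over the 3 probe sets. Among all measured genes 1.82% were higher in this comparison and 1.86% were lower. Under 4OHT it was 3.37-fold higher with CreER than without, a log2 difference of 1.75 (1.48 to 1.75 over the probe sets), where 1.46% of genes were higher and 2.24% lower. These comparisons share the CKO 4OHT array. Without CreER the drug went with a lower Ccnd1 value, by a log2 difference of -0.70 (-0.83 to -0.43 over the probe sets), which did not reach 2-fold. The difference of the drug effects, CKO minus control, was therefore 1.97 (1.80 to 2.03), and 2.79% of measured genes had a difference of at least 2-fold in this direction, 2.89% in the other. CKO 4OHT lay 2.08-fold above the nearest other array, a separation that 0.75% of measured genes reached. It was 2.06-fold by 1417419_at and 1.80-fold by 1417420_at, so the separation from all arrays sits close to the 2-fold limit, and it did not reach it when the 3 probe sets were averaged.

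**Figure D1:**
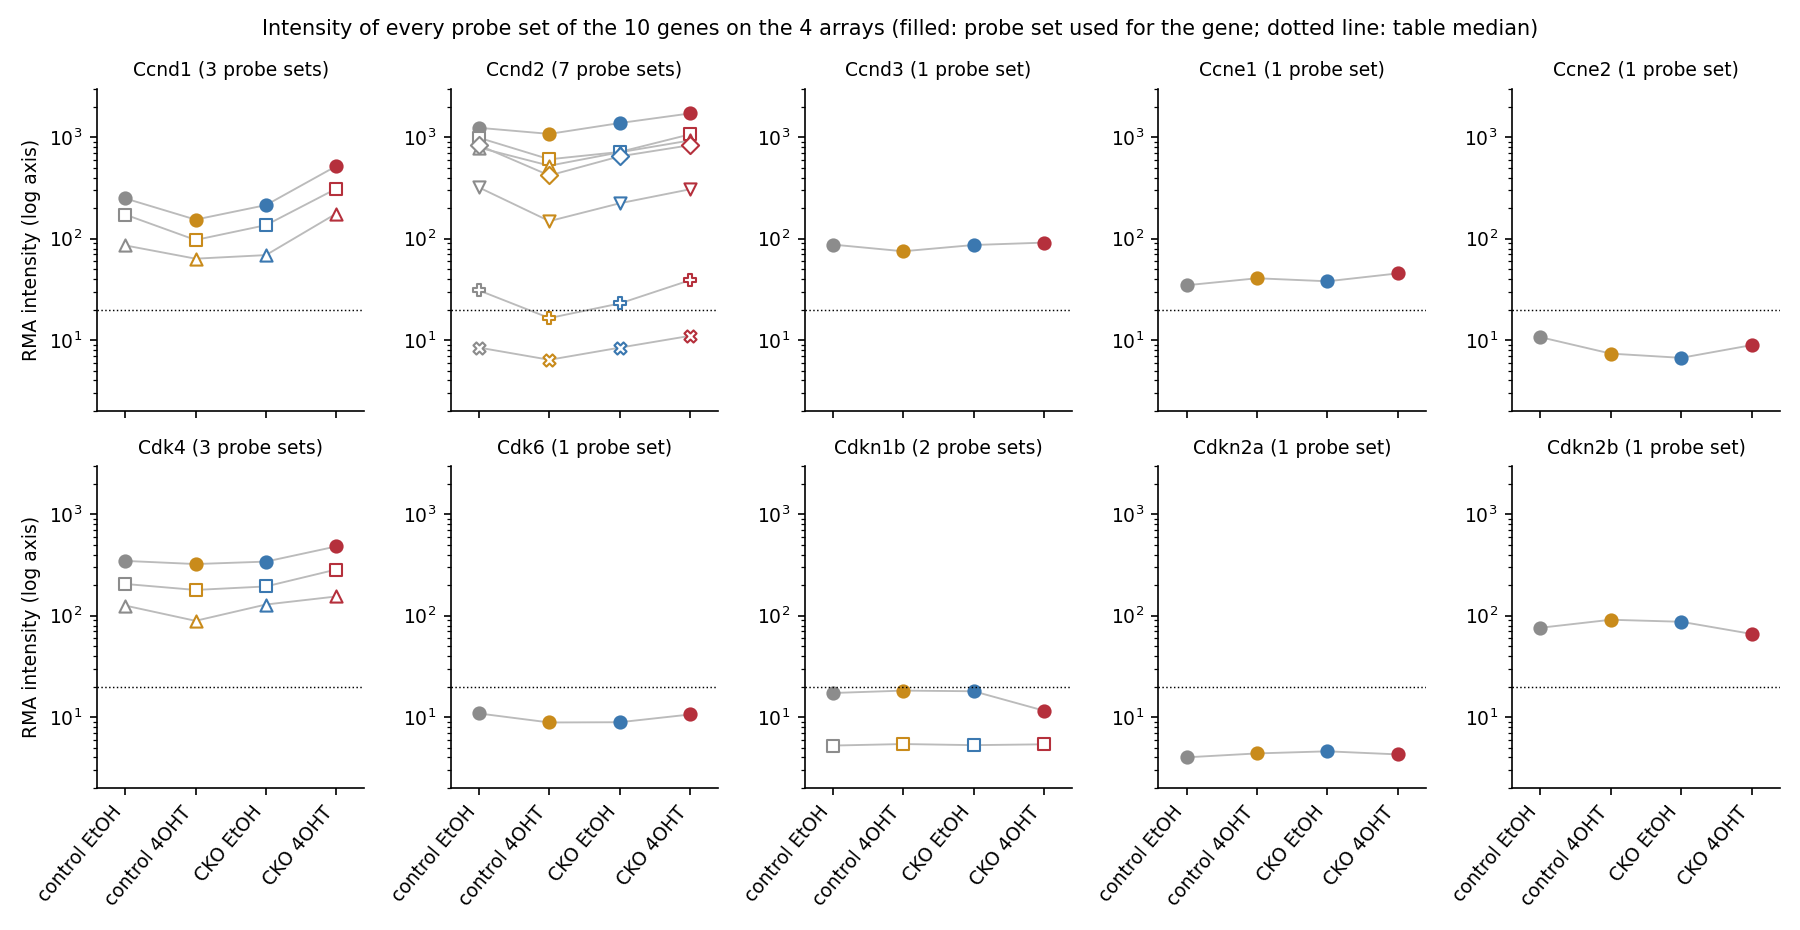
RMA intensity on a log axis of each of the 21 probe sets, 1 panel per gene, on the 4 arrays (1 array per group, no error bars); filled symbols mark the probe set that represents the gene and the dotted line is the table median of 20.04. Ccnd1 stands at 521 in CKO 4OHT against 154 to 249.98 elsewhere, while Ccne2, Cdk6, Cdkn1b and Cdkn2a stay under the dotted line.

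Cyclin D2 shared the highest and the lowest array with cyclin D1, over a smaller range. Ccnd2, the D cyclin that many proliferating tissues express beside cyclin D1, read 1243 with ethanol and 1082 with 4OHT in control cells, and 1384 and 1723 in CKO cells by 1416122_at, its brightest probe set. CKO 4OHT was the highest array and control 4OHT the lowest, with a log2 difference of 0.67 between them and of 0.32 between CKO 4OHT and CKO EtOH. Of the 7 Ccnd2 probe sets, 6 were measured, and they agreed on the lowest array but not on the size of the differences.

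Probe set 1434745_at read 837, 421, 649.8 and 837 on the arrays in the same order, so that control EtOH equalled CKO 4OHT to 3 digits. Probe set 1448229_s_at, of a kind that can bind related transcripts, read 320.5, 149, 224 and 308, with control EtOH the highest array. For 4OHT without CreER the measured Ccnd2 probe sets gave log2 differences from -1.10 to -0.20, and only 1448229_s_at reached 2-fold. For CKO 4OHT against control 4OHT they gave 0.67 to 1.24, of which 2 reached 2-fold, 1448229_s_at (1.04) and 1416123_at (1.24). Probe set 1416123_at is dim, at 16.5 in control 4OHT, under the level limit, and at most 39.0. The brightest probe set gave the smallest difference of the drug effects, 0.52, while 4 of the 6 passed 2-fold. The highest, 1.67, came from the dim 1416123_at. What the 7 probe sets shared was a low value in control 4OHT; they did not share a high value in CKO 4OHT relative to control EtOH.

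Cyclin D3, the D cyclin often raised in cells that leave the cycle and differentiate, hardly varied. Ccnd3 read 87.5 with ethanol and 75.2 with 4OHT in control cells, and 86.7 and 91.6 in CKO cells. Its log2 range over the arrays was 0.28, against 1.75 for Ccnd1, and no comparison reached 2-fold.

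**Figure D2:**
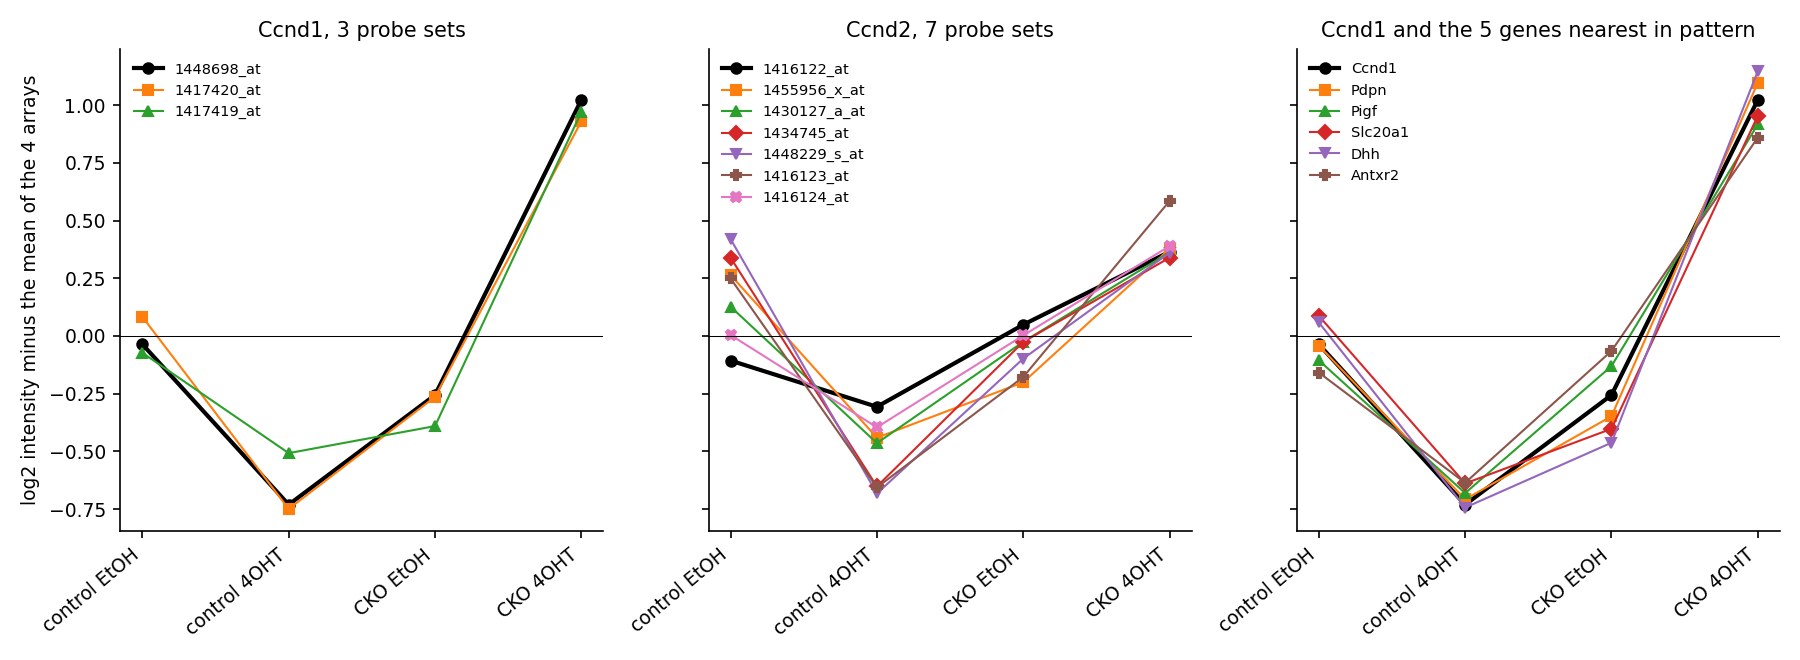
Log2 intensity minus the mean of the 4 arrays for the 3 Ccnd1 probe sets (left), the 7 Ccnd2 probe sets (middle) and Ccnd1 with the 5 genes nearest to it in pattern (right); lines join the 4 arrays, 1 per group. The Ccnd1 probe sets share 1 shape, whereas the Ccnd2 probe sets share the low point in control 4OHT and differ in the height of control EtOH.

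By likeness of pattern, measured as the Euclidean distance between log2 profiles over the 4 arrays, the gene nearest to Ccnd1 was Pdpn, the membrane glycoprotein podoplanin, which read 82.9 with ethanol and 52.2 with 4OHT in control cells, and 67.1 and 183 in CKO cells (distance 0.12). It was followed by Pigf, an enzyme of GPI anchor synthesis (0.19), the phosphate transporter Slc20a1 (0.22), the hedgehog ligand Dhh (0.26) and Antxr2, a receptor of the anthrax toxin (0.30), among 455 measured genes with a range of at least 2-fold. For Ccnd2, whose own range is under 2-fold, the nearest were BC003965 (0.24), Fjx1 (0.28), Gart, an enzyme of purine synthesis (0.29), Gusb (0.32) and Slc35a1 (0.32). With 4 arrays these distances describe the profiles and carry no test.

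Of the E cyclins, which act after the D cyclins at the entry into S phase, only Ccne1 was measured. Ccne1 read 34.8 with ethanol and 40.7 with 4OHT in control cells, and 38.0 and 45.5 in CKO cells. Both 4OHT arrays lay above the ethanol array of their own genotype, by 0.23 without CreER and 0.26 with it, so that the difference of the drug effects was 0.03. Ccne2 read 10.7, 7.36, 6.68 and 8.92 on the arrays in the same order, at most at percentile 36.4 of an array.

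Cdk4, the kinase partner of the D cyclins, was highest in CKO 4OHT by every probe set, without reaching 2-fold. The brightest, 1422441_x_at, read 348 with ethanol and 324 with 4OHT in control cells, and 342 and 483 in CKO cells. Probe sets with this ending can also bind related transcripts, but 1422440_at, without it, read 206, 179.7, 195 and 286. The log2 difference from CKO EtOH was 0.50 (0.26 to 0.55 over the 3 probe sets), and that from control 4OHT was 0.58 (0.58 to 0.80). The 3 arrays other than CKO 4OHT lay within 324 to 348 by the brightest probe set. They did not by the third, 1422439_a_at, which read 126, 89.1, 129 and 155 on the arrays in the same order. By this probe set control 4OHT lay 1.41-fold below the nearest other array and CKO 4OHT 1.20-fold above it. Cdk6, the second partner of the D cyclins, read 10.9, 8.86, 8.91 and 10.6 and was not measured.

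Of the 3 inhibitors only Cdkn2b was measured. Cdkn2b, which encodes p15 INK4b, an inhibitor of CDK4 and CDK6 known as a target of TGF-beta, read 76.1 with ethanol and 91.3 with 4OHT in control cells, and 87.2 and 66.2 in CKO cells. CKO 4OHT was the lowest array and control 4OHT the highest, the reverse of Ccnd1, Ccnd2, Ccnd3 and Cdk4 at both ends. The log2 difference was -0.40 from CKO EtOH and -0.46 from control 4OHT, and 0.26 for the drug without CreER, none of them 2-fold. Cdkn1b, the Cip/Kip inhibitor p27, read 17.3, 18.3, 18.0 and 11.6 by 1434045_at, with CKO 4OHT 1.49-fold below the nearest other array. The other Cdkn1b probe set read between 5.24 and 5.43 on all arrays, so this difference rests on 1 probe set under the level limit. Cdkn2a, the locus of p16 INK4a and p19 ARF, read 4.01, 4.38, 4.60 and 4.29, at most at percentile 9.51 of an array.

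**Figure D3:**
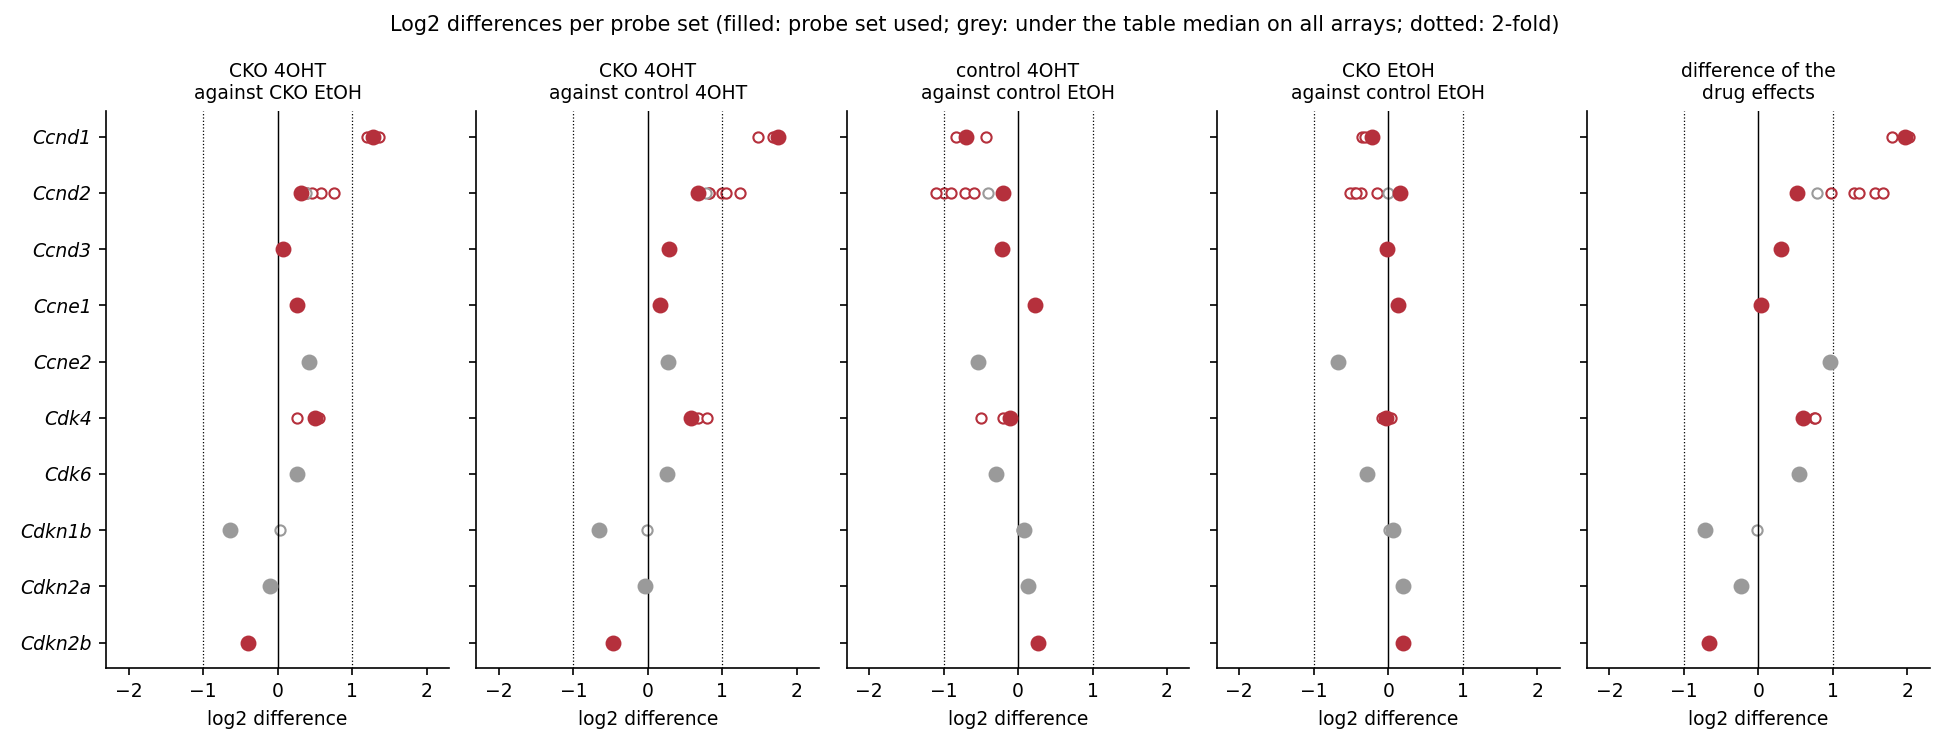
Log2 differences of the 10 genes in the 5 comparisons, 1 symbol per probe set (filled for the probe set that represents the gene, grey where it stays under the table median on all arrays); dotted lines mark 2-fold. Ccnd1 passes the line in both comparisons of CKO 4OHT (1.28 and 1.75) and in the difference of the drug effects (1.97), and Cdkn2b lies on the other side of 0 in these 3.

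Counted over the 6 measured genes by the probe set that represents each, CKO 4OHT was the highest of the 4 arrays for 5 (Ccnd1, Ccnd2, Ccnd3, Ccne1 and Cdk4), where 31.6% of all measured genes had their highest value. It was the lowest for Cdkn2b alone, where the share of all genes was 31.1%. Control 4OHT was the lowest array for 4 (the D cyclins and Cdk4), against 30.8% of all genes. The median log2 difference of the 6 was 0.29 from CKO EtOH, 0.43 from control 4OHT and -0.15 for the drug without CreER, beside 0.01, 0.01 and -0.04 over all measured genes. In control 4OHT against control EtOH none of the 6 reached 2-fold in either direction by the probe sets that represent them, where 1.27% of measured genes were higher and 0.241% lower. In CKO EtOH against control EtOH, which differ by CreER and by animal, none did so either, against 0.0536% of genes higher and 0% lower, and the values ran from -0.22 for Ccnd1 to 0.20 for Cdkn2b.

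The promoters of Cdk4 and Cdkn2b are shown because these genes had the highest and the lowest difference between CKO 4OHT and CKO EtOH among the measured genes whose promoter is in the RefSeq table. That table (GRCm38.p6, 250 bases before to 50 after each start) held 9 promoters of 7 of the genes; Ccnd1, Ccnd2 and Ccne2 were not matched. The 250 bases before the start of Cdk4 (chr10:127063285-127063534, plus strand) have the E-box CACGTG, the letters bound by MYC and related factors, in capitals, and those before Cdkn2b (chr4:89311033-89311282, minus strand) have the cyclic AMP response element TGACGTCA in capitals.
Cdk4: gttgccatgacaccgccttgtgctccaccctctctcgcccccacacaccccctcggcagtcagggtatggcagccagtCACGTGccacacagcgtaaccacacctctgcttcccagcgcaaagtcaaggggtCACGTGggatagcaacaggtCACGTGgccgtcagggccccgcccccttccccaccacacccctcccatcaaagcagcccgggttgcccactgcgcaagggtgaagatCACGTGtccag
Cdkn2b: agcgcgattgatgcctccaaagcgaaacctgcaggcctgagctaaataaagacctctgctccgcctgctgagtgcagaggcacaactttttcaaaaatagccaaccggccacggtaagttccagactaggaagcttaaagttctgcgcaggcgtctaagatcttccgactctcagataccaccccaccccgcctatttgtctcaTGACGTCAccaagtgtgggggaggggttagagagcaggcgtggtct

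Cdk4 held 4 E-boxes, whose first bases lie at -172, -118, -98 and -11 when -1 is the base just before the start. At least 1 E-box was in 2 of the 9 promoters (Cdk4 and Cdk6) and in 7.15% of the 32851 promoters of the table. The response element of Cdkn2b lies at -46 to -39, and 1.79% of all promoters hold these letters; the shorter letters TGACG, which it contains, were in 6 of 9 promoters and 20.8% of all. Searched on both strands as well, the GC box GGGCGG was in 8 of 9 (35.7% of all), the E2F letters TTTNNCGC in 3, 2 of Cdkn2a and 1 of Cdk6 (5.17%), and TATAAA in 1 (13.6%). The AP-1 letters TGANTCA (7.81% of all) and the PRDM1 core AGNGAAAG (8.63%) were in none of the 9 windows. These matches describe the letters and are no evidence of binding.

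Genes on either side of this switch were read from lists of known components. Among 22 measured regulators upstream of cyclin D genes, 4 were at least 2-fold higher in CKO 4OHT than in CKO EtOH and 1 was lower, with a list median of -0.05, beside 1.82% and 1.86% of all measured genes. Against control 4OHT 5 were higher and 2 lower, beside 1.46% and 2.24%. The higher ones in the first comparison were Dusp6 (3.12), Fos (2.50), Fosl1 (1.79) and Etv4 (1.32). Dusp6 is a phosphatase induced by ERK signalling, Fos and Fosl1 are AP-1 subunits, and Etv4 is an ETS factor. Dusp6 read 108 in CKO 4OHT against 9.75 to 12.5 elsewhere, and Fosl1 read 59.4 against 17.1 to 17.5. Both passed the level limit in CKO 4OHT alone, so they count as measured only through the array where they are high. Their values on the other arrays may be background, and the size of these differences is uncertain. Fos and Etv4 were above the limit on every array. Myc, which binds E-boxes, read 139.7 with ethanol and 134 with 4OHT in control cells, and 161 and 312 in CKO cells, a log2 difference of 0.96 from CKO EtOH and 1.22 from control 4OHT. The ETS factor Ets2 was lower in both comparisons (-1.14 and -1.29) and the immediate early factor Egr1 in the second (-0.91 and -1.01). Jun (-0.76 and -0.76) and Stat3 (-0.76 and -0.85) lay below without reaching 2-fold there, and passed it in the difference of the drug effects, at -1.17 and -1.01, as Egr1 did at -1.45.

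Among inhibitors outside the 10 genes 1 passed 2-fold. Of 4 measured, Cdkn2d, which encodes p19 INK4d, an inhibitor of CDK4 and CDK6, read 44.3 with ethanol and 45.7 with 4OHT in control cells, and 40.9 and 15.8 in CKO cells. CKO 4OHT was the lowest and the other 3 arrays were close together, with log2 differences of -1.38 from CKO EtOH and -1.54 from control 4OHT. Of all measured genes 1.86% and 2.24% were at least 2-fold lower in these comparisons. The value of Cdkn2d in CKO 4OHT is under the level limit and may be background, so the size of its differences is uncertain. Cdkn1a, the p53-induced inhibitor p21, was highest in CKO 4OHT (1580 against 1032 to 1168), Cdkn1c, p57, was lowest there (28.7 against 35.3 to 39.8), and Cdkn2c, p18 INK4c, was between 63.2 and 70.8; none of these reached 2-fold. Among 19 measured regulators of the inhibitor genes, Mdm2, the p53 antagonist, was the 1 at least 2-fold higher (log2 differences of 1.01 from the CKO culture in ethanol and 1.25 from control cells with 4OHT) and none was lower. Over all measured genes 1.82% and 1.46% were higher in these comparisons.

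The retinoblastoma and E2F genes themselves had no member past 2-fold in any comparison. Over all measured genes at most 2.89% passed it per comparison and direction, so none in a list this short is near that share. Of 11 measured, Tfdp1, the DNA-binding partner of E2F, read 193, 144, 183 and 249 on the arrays in the order given above, and Rbl1, which encodes the pocket protein p107, had 91.7, 54.3, 72.3 and 81.8. The list median was 0.13 in the first of these comparisons of CKO 4OHT and 0.06 in the second. Among 13 measured genes of other G1 kinases, their activators and p27 turnover, none passed 2-fold either, and the brightest were Cks1b (0.15 against CKO EtOH) and Cdc37 (0.39), a chaperone partner of CDK4. Ccna2, cyclin A2, which acts in S and G2, was lowest in CKO 4OHT, at 192 against 315 to 361.

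Downstream, genes of S phase and of mitosis differed in which array was lowest. Of 24 measured E2F target genes of S phase, 22 were lowest in control 4OHT and none was highest there, while 16 were highest in control EtOH and 7 in CKO 4OHT. Of all measured genes 30.8% were lowest and 23.9% highest in control 4OHT, 29.4% were highest in control EtOH and 31.6% in CKO 4OHT. All 24 lay below control EtOH with the drug in cells without CreER, with a median of -0.67, and 2 were at least 2-fold lower: Pola1 (-1.26), a DNA polymerase subunit, and Hells (-1.23), a chromatin remodeller. In that comparison 56.6% of all measured genes lay below 0 and 0.241% were at least 2-fold lower. Pola1 read 13.4 and Hells 12.4 in control 4OHT, under the level limit, where values may be background. The size of their differences that use this array is therefore uncertain, also in the difference of the drug effects. In CreER cells 17 of the 24 lay above the ethanol culture, with a median of 0.18, and 1 was at least 2-fold higher, Tk1 (1.13), thymidine kinase, beside 51.3% of all measured genes above 0 and 1.82% higher. Tk1 read 74.2 with ethanol and 37.4 with 4OHT in control cells, and 40.7 and 88.9 in CKO cells. The difference of the drug effects was above 0 for 23 of the 24, with a median of 0.83, and at least 2-fold for 7, beside 2.79% of all measured genes, led by Tk1 (2.12), Rrm2 (1.54), a ribonucleotide reductase subunit, Cdt1 (1.38), a licensing factor, Hells (1.32), Pola1 (1.31) and Mcm5 (1.31), a helicase subunit. Over all measured genes 54.7% had a difference above 0, with a median of 0.04. The ethanol cultures differed too: 23 of the 24 S phase genes read lower in CKO EtOH than in control EtOH, with a median of -0.31, where 56.2% of all measured genes were lower.

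Of 21 measured genes of G2 and mitosis, 17 were lowest in CKO 4OHT, none was highest there, and 17 were highest in control EtOH, beside 31.1%, 31.6% and 29.4% of all measured genes. In CKO 4OHT against CKO EtOH 20 of 21 lay below 0, with a median of -0.34, beside 48.6% of all measured genes, and against control 4OHT 18 of 21 did, with a median of -0.39, beside 47.8%. Mki67, the nuclear antigen of cycling cells, was the 1 gene that reached 2-fold, at 126 in CKO 4OHT against 254 in CKO EtOH (-1.02), with 281 and 229.6 in control cells with ethanol and with 4OHT. Between the CKO arrays 1.86% of all measured genes were at least 2-fold lower with 4OHT. Without CreER, 18 of the 21 mitosis genes read lower with the drug, with a median of -0.24, beside 56.6% of all measured genes. The D cyclins, Cdk4 and all 24 S phase genes read lower there too.

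**Figure D4:**
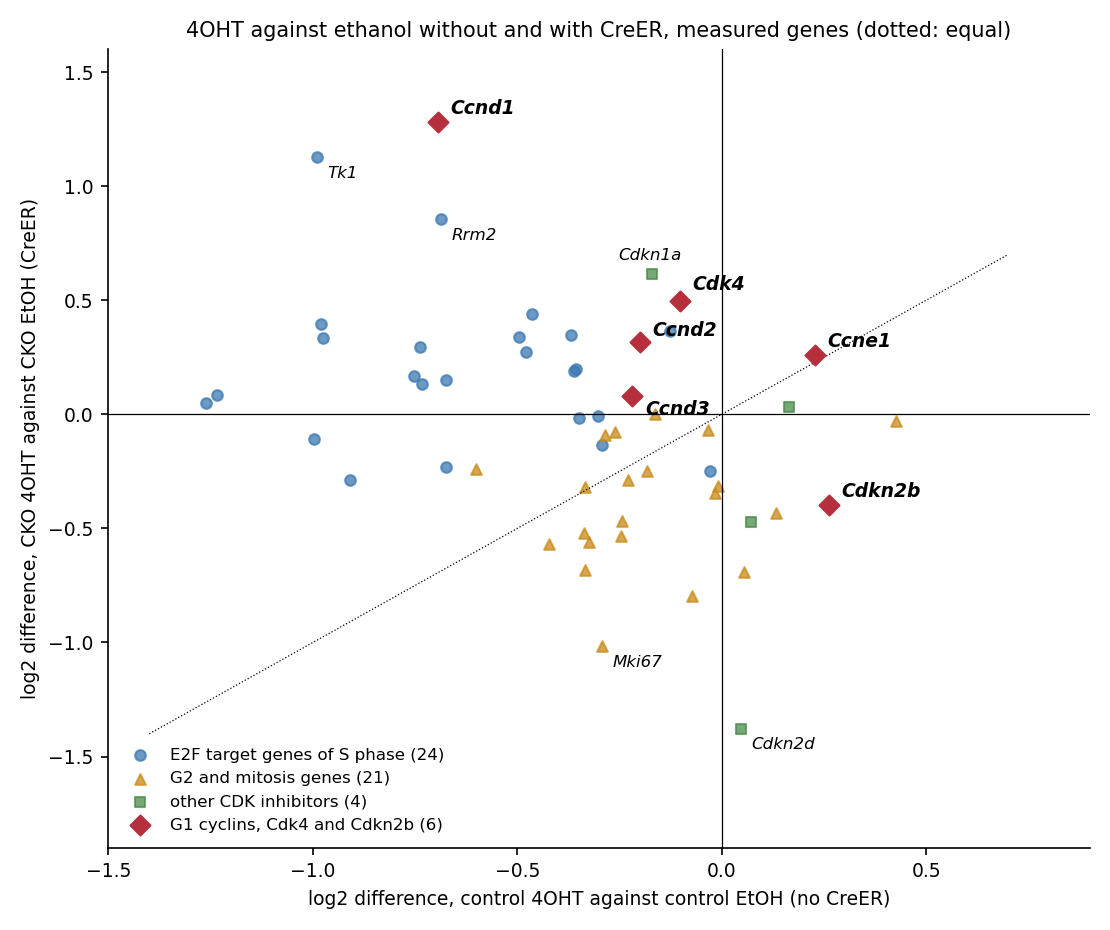
Log2 difference of 4OHT against ethanol without CreER (x axis) and with CreER (y axis) for the 6 measured genes of the G1 switch (diamonds), 24 E2F target genes (circles), 21 mitosis genes (triangles) and 4 other CDK inhibitors (squares); the 2 axes share no array and the dotted line marks equal differences. Ccnd1 lies at -0.70 and 1.28, near Tk1 and Rrm2, whereas Cdkn2b lies at 0.26 and -0.40 and mitosis genes lie mostly below 0 on both axes.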

How the data were processed

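RNA of 4 cultures was labelled with a 3′ in vitro transcription kit, per the labels' protocols, and hybridised to a Mouse Expression Array 430A (Affymetrix), per the series' design text. The deposited values are linear intensities of 22626 probe sets, from 2.66 to 7167, made with RMA per the submitters' processing notes; the sources used here give no version or settings. RMA brings the distributions of arrays together (medians 19.95 to 20.22), so that a shift of most transcripts cannot be seen, and differences of dim probe sets come out too small.

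The log2 of each value was taken with no offset and no further scaling (Python 3.11.15, pandas 2.3.3). Symbols came from the supplied platform annotation, where 20380 probe sets name 1 gene. A gene was represented by its probe set with the highest mean. The 10 genes, the 12 gene lists, the 7 marker lists and the tests were chosen with earlier results of these data known. All 10 genes are named; of another list, up to 6 members per comparison that differ at least 2-fold or stand apart on 1 array, otherwise the 2 brightest. Cdkn1a, Cdkn1c, Cdkn2c and Ccna2 were named after their values were seen. The planned check of RNA quality from 3′ and 5′ control probe sets was not made, and protein sequences were not used here. The counting was tested on simulated data. The alternatives were other probe set rules, level limits, scalings, an offset and a 1.5-fold limit.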

Additional observations from a re-analysis of the deposited data

Results flagged for a closer look

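By the probe sets that represent the genes, Ccnd1 was the one measured gene of the 10 whose drug effects had opposite signs with a difference of at least 2-fold: with 4OHT it was higher by 1.28 in CreER cells and lower in control cells (-0.70), a difference of 1.97 on the log2 scale. Of the 6 measured Ccnd2 probe sets 4 met the same rule, but not the one that represents the gene (0.52). Each effect is 1 array against 1 array, and the difference was not tested.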

How the results depend on the processing

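No paired analysis was possible because each group has 1 array. Across 9 alternative settings, 156 counts of genes past the limit stayed within 1.5 times of the reported count and 6 did not. Most of the reported counts were 0 and stayed 0. With the mean of all probe sets of a gene, the genes with a difference of the drug effects above 2-fold became 2 (Ccnd1 and Ccnd2), and those above all other arrays in CKO 4OHT became 0. With a 1.5-fold limit the higher genes became 2 against control 4OHT, the lower genes became 1 for the drug in control cells, and for the difference of the drug effects 2 were higher and 1 lower. The log2 differences of Ccnd1 kept their sign under all 8 settings that give one, from 1.20 to 1.28 against CKO EtOH, 1.63 to 1.77 against control 4OHT and 1.84 to 1.99 for the difference of the drug effects. Settings that only change the level limit or drop probe sets ending in _s_at or _x_at could not change these values. Of 30 values of the 6 measured genes, 4 changed sign in some setting: Ccnd2 (0.16, and -0.25 with the mean of its probe sets), Ccnd3 (-0.01) and Cdk4 (-0.02) between the ethanol cultures, and Ccne1 in the difference of the drug effects (0.03). Under no setting did the median of all genes lie further than 0.069 from 0. Dim signal limits Ccne2, Cdk6, Cdkn1b and Cdkn2a.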
